A study of Bos taurus with 27 samples.

Results

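The genes ENSBTAG00000022759, ENSBTAG00000038966 and ENSBTAG00000047551 are 3 of the 19994 Ensembl cattle genes counted in single day 15 embryos. They were chosen by measured values: each is among the 10 genes with the highest mean CPM (a gene's read count over the total count of its library, scaled to a common library size), and each has a CPM that climbs steeply with the size number in the sample titles. Their level and their climb with size are therefore described here without a test. Tests were run on diet at a given size, on the difference in slope between diets, on the letter in the titles, and on how embryos deviated from the size trend. Neither the count files nor the RefSeq gene table used here (which matched 0 of the 19994 identifiers) pair these identifiers with gene names, so the 3 genes keep their identifiers, and what their products do is not given.

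The series asked how maternal diet affects cattle (Bos taurus) embryos, and 27 libraries of polyadenylated RNA were analysed, 1 per embryo, all of day 15 of pregnancy. Of these, 16 came from dams on an omega-3 diet (6 classed as long, with size numbers from 10.5 to 20.3, and 10 as short, from 0.4 to 9.5). The other 11 came from dams on an omega-6 diet, and all were short (1.4 to 7.7). The unit of the size number is not stated. No long omega-6 embryo was analysed here, and beyond a size number of 7.7 or below 1.4 only omega-3 embryos contribute. The labels name neither dams nor batches, so each p-value is set against the variation among the embryos collected, and whether a difference would recur over dams was not tested.

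As background, the cattle embryo at this age is free in the uterus. Its outer layer, the trophectoderm, elongates from a sphere through a tube to a filament before attachment, and comes to make up most of the tissue. This layer secretes interferon tau, the signal by which the embryo is recognised by the dam, and large amounts of a few other secreted proteins. An embryo library is a mixture of trophectoderm, hypoblast and embryonic disc, and in such a bulk sample more cells of a type and more RNA per cell cannot be told apart.

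Total counts ran from 17931620 to 29868584 per embryo. The 3 genes had between 25111 and 1061627 counts in every embryo, and the exact 95% binomial interval of a share was at most 1.24% of the value to either side, counting error only. Most differences between embryos below are far wider than this. The 1.01-fold and 1.02-fold differences in ENSBTAG00000047551 between embryos of like size are not. The smallest embryo (embryo 14, omega-3, size number 0.4) is isolated in size, the next being 1.3. Embryo 22 (omega-6) lay apart on the second principal component of log2 CPM, at 68.5, while embryo 25 (omega-6), which earlier results of these data grouped with it, lay at 19.1, within the -46.7 to 26.7 of the other 25. Embryo 07 (long omega-3) is lettered f but had 41.1 CPM of ENSBTAG00000045750, within the 10.5 to 78.1 CPM of the embryos lettered m, while none of the other 11 lettered f exceeded 4 counts of that gene.

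The 3 genes together held 0.351% of all counts in the smallest embryo and 7.80% in long embryo 04, the highest of the 27. In long omega-3 embryos their joint share ran from 6.35% to 7.80% with a median of 6.65%. In short omega-3 embryos it ran from 0.351% to 7.27% (median 4.77%), and in short omega-6 embryos from 1.68% to 6.53% (median 2.69%). Only 2 of the 21 short embryos reached the lowest share of the long group, the largest omega-3 one and the largest omega-6 one. By size number the mean share was 1.98% ± 0.848 (SD, n = 7) below 2.5, 3.97% ± 1.26 (n = 7) from 2.5 to below 5, 5.62% ± 1.07 (n = 7) from 5 to below 10, and 6.80% ± 0.525 (n = 6) at 10 and above. A share this large lowers the CPM of all other genes by up to 7.48% (-0.11 on the log2 scale) between the lowest and the highest embryo.

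**Figure D1:**
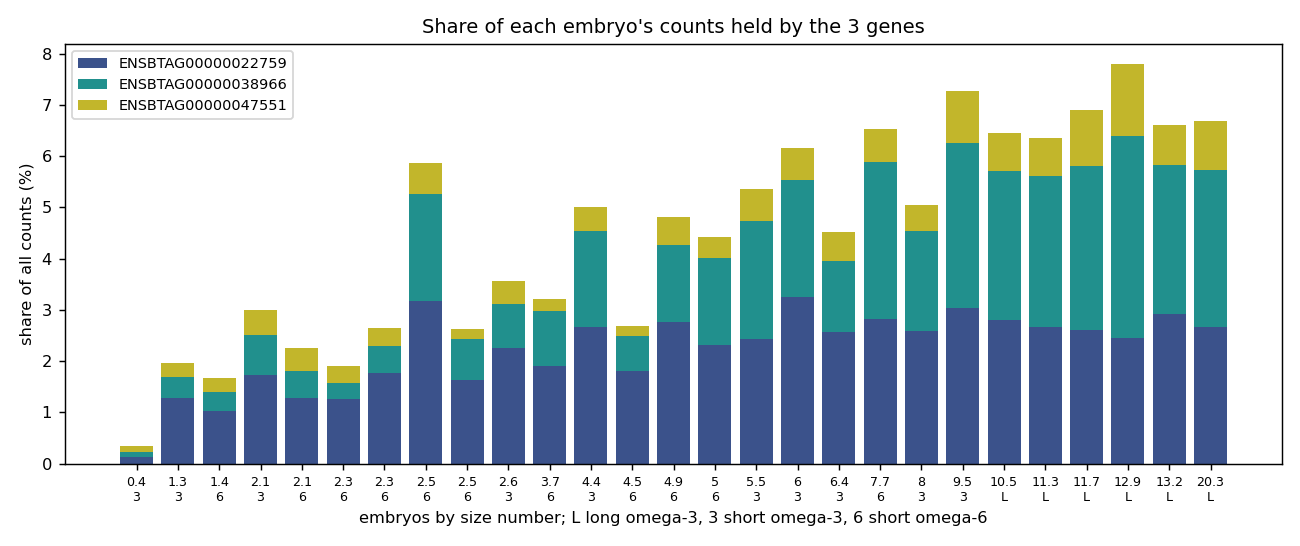
Stacked bars give the percentage of each embryo's counts (vertical axis) held by the 3 genes, 1 bar per embryo in order of size number, with the group under each bar. The smallest embryo holds 0.351%, the long embryos 6.35% to 7.80%, and the short omega-6 embryo with 5.86% at a size number of 2.5 is embryo 21.

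Among the 10 highest genes these 3 ranked 2, 3 and 10 by mean CPM. Their slopes on log2 size over the 27 embryos were 0.56 ± 0.088 (SE) per doubling of the size number for ENSBTAG00000022759, 0.96 ± 0.082 for ENSBTAG00000038966 and 0.53 ± 0.076 for ENSBTAG00000047551. The slopes of the other 7 genes among the 10 lay between -0.14 and 0.11. ENSBTAG00000047551 entered as the tenth gene at a mean of 5591 CPM, just above the gene in place 11 at 4920 CPM, whose slope was -0.09. The files give no gene lengths, so the ranks order genes by counts taken and not by transcripts.

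ENSBTAG00000022759 climbed up to a size number of about 5 and was level thereafter, so its climb ended before the long class. It measured 24560 CPM at the lowest, 26685 at the median and 29148 at the highest in the 6 long omega-3 embryos. The 10 short omega-3 embryos gave 1284, 25062 and 32522 CPM, and the 11 short omega-6 embryos 10361, 18006 and 31793 CPM. The groups overlapped: the highest embryo of all was short, while 5 of the 10 short omega-3 and 8 of the 11 short omega-6 embryos lay below every long embryo. Mean CPM was 12143 ± 5486 (SD, n = 7) at size numbers below 2.5, 23128 ± 5726 (n = 7) from 2.5 to below 5, 27181 ± 3354 (n = 7) from 5 to below 10 and 26883 ± 1588 (n = 6) at 10 and above. The ratio between neighbouring classes went from 1.90 to 1.18 to 0.989. The slope was 0.56 ± 0.18 (SE, n = 13) per doubling below a size number of 5 without the smallest embryo, and 0.03 ± 0.069 (n = 13) at 5 and above.

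The smallest embryo carried much of the overall slope of ENSBTAG00000022759. It held 1284 CPM and the gene stood in place 94 of that embryo, against 12864 CPM and place 2 in the next smallest omega-3 embryo at a size number of 1.3. Without it the slope over the other 26 embryos was 0.32 ± 0.057 (SE). A curve with a square term of log2 size left a residual SD of 0.28 log2 units, against 0.57 for the straight line. Its square term was -0.22 ± 0.025 (SE), and -0.14 ± 0.047 without the smallest embryo, so the bend was present at either setting. In all embryos but the smallest the gene ranked between 2 and 5.

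ENSBTAG00000038966 covered the widest range of the 3 genes, 40.5-fold from the lowest to the highest embryo, against 25.3-fold and 11.3-fold for ENSBTAG00000022759 and ENSBTAG00000047551. Long omega-3 embryos held 28974 CPM at the lowest, 30083 at the median and 39353 at the highest. Short omega-3 embryos held 973, 16332 and 32108 CPM, and short omega-6 embryos 3031, 8045 and 30637 CPM. In each short group only the largest embryo, at size numbers of 9.5 and 7.7, reached into the long range. The class means were 4273 ± 2121 (SD, n = 7), 12734 ± 5513 (n = 7), 22727 ± 6730 (n = 7) and 31606 ± 3952 CPM (n = 6) from the smallest to the largest class, steps of 2.98-fold, 1.78-fold and 1.39-fold.

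The climb of ENSBTAG00000038966 did not rest on the smallest embryo, since its slope without that embryo was 0.91 ± 0.099 (SE, n = 26). It was 0.997 ± 0.33 (n = 13) below a size number of 5 without the smallest embryo and 0.51 ± 0.15 (n = 13) at 5 and above. Within the 6 long embryos it was 0.04 ± 0.25. A square term changed the residual SD little, from 0.54 to 0.52. The gene stood in place 130 in the smallest embryo, in places 3 to 26 in the other short embryos except the largest of each diet, and in place 2 in those and in all 6 long embryos. In long embryo 07 its lead over ENSBTAG00000022759 was within counting error.

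ENSBTAG00000047551 was the lowest counted of the 3 and was highest in the long class. Long omega-3 embryos held 7377 CPM at the lowest, 8626 at the median and 14094 at the highest. The short omega-3 values were 1249, 5017 and 10246 CPM, and the short omega-6 values 1965, 3489 and 6394 CPM. All 11 omega-6 embryos lay below every long embryo, and among short omega-3 embryos 1 of 10, at a size number of 9.5, lay within the long range. The class means were 3339 ± 1215 (SD, n = 7), 3810 ± 1740 (n = 7), 6258 ± 1955 (n = 7) and 9517 ± 2632 CPM (n = 6). Here the first step was 1.14-fold and the later steps 1.64-fold and 1.52-fold.

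The pattern of ENSBTAG00000047551 over size thus differed in form from that of ENSBTAG00000022759. Its slope below a size number of 5 was 0.05 ± 0.28 (SE, n = 13) without the smallest embryo, and at 5 and above it was 0.63 ± 0.17 (n = 13). A square term was 0.018 ± 0.045 (SE), with residual SDs of 0.505 with it and 0.496 without, so a bend was not resolved. Without the smallest embryo the term was 0.11 ± 0.087. The split at 5 also mixes size with diet. Class means rose in omega-3, from 3024 to 4536, 6691 and 9517 CPM (n = 3, 2, 5 and 6). In omega-6 they were 3575, 3520 and 5174 CPM (n = 4, 5 and 2). These are descriptions of the values that chose the genes. The gene was among the 10 most counted in 13 embryos, against 22 for ENSBTAG00000038966 and 26 for ENSBTAG00000022759. Its best place was 4, in long embryo 04.

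**Figure D2:**
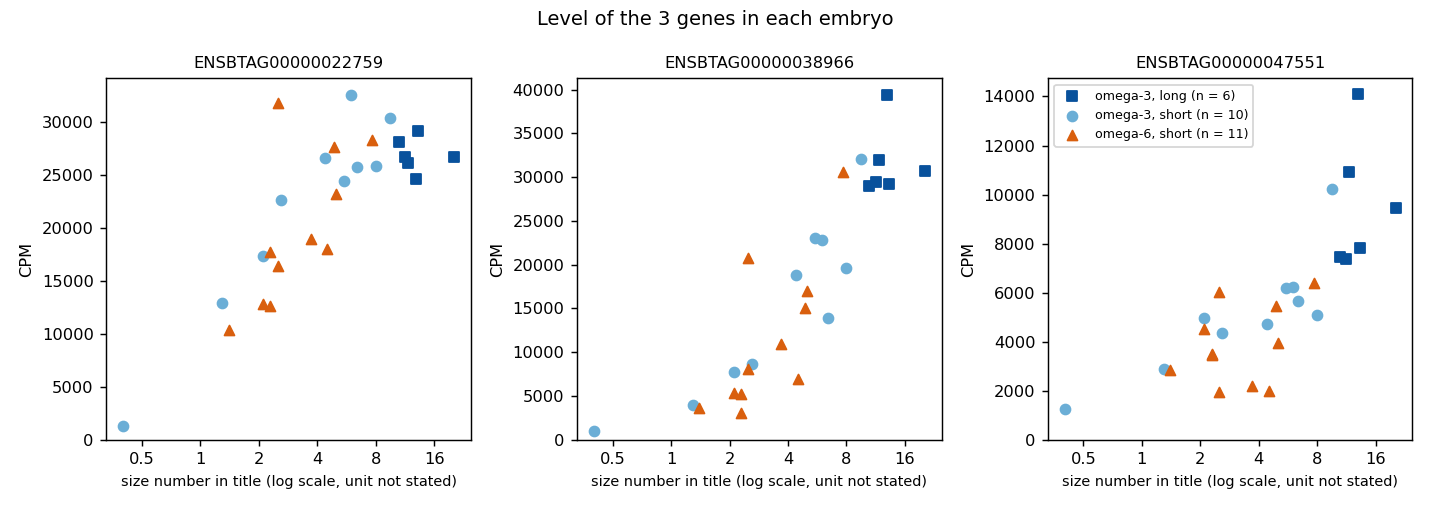
Each point is 1 embryo, with CPM on the vertical axis and the size number on a log axis, and colour and shape give the group. ENSBTAG00000022759 is flat from a size number of about 5, with class means of 27181 and 26883 CPM, while ENSBTAG00000038966 and ENSBTAG00000047551 reach their highest class means, 31606 and 9517 CPM, in the long embryos.

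Ratios between the genes within an embryo do not depend on how libraries are scaled. ENSBTAG00000038966 over ENSBTAG00000022759 averaged -1.41 ± 0.54 on the log2 scale (SD, n = 7) at size numbers below 2.5, then -0.94 ± 0.35 (n = 7), -0.30 ± 0.36 (n = 7) and 0.23 ± 0.24 (n = 6) in the long embryos. The first had more counts than the second in all 6 long embryos and in 2 short ones, the largest of each diet. No embryo with a size number below 7.7 showed this order.

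By class mean, ENSBTAG00000047551 over ENSBTAG00000022759 was lowest from 2.5 to below 5. The log2 ratio was -1.66 ± 0.76 (SD, n = 7) below 2.5, -2.71 ± 0.39 (n = 7) from 2.5 to below 5, -2.16 ± 0.32 (n = 7) from 5 to below 10 and -1.54 ± 0.45 (n = 6) above. In the smallest embryo the 2 genes were nearly equal in counts, at a ratio of 0.973. This raised the mean below 2.5, where the other embryos lay between -2.36 and -1.50. The class from 2.5 to below 5 was mostly omega-6 (n = 5, against n = 2 for omega-3). Its omega-6 embryos 30, 22 and 24 stood at -3.06, -3.13 and -3.18, and its other embryos between -2.50 and -2.34. The lower mean of that class thus mixes size with diet. ENSBTAG00000047551 over ENSBTAG00000038966 went from -0.25 ± 0.39 below 2.5 to -1.77 ± 0.44 in the next class and then varied little, at -1.86 ± 0.32 and -1.76 ± 0.22 (SD, n = 7, 7, 7 and 6). From a size number of 2.5 upward these last genes thus kept a nearly steady proportion of each other in the class means.

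**Figure D3:**
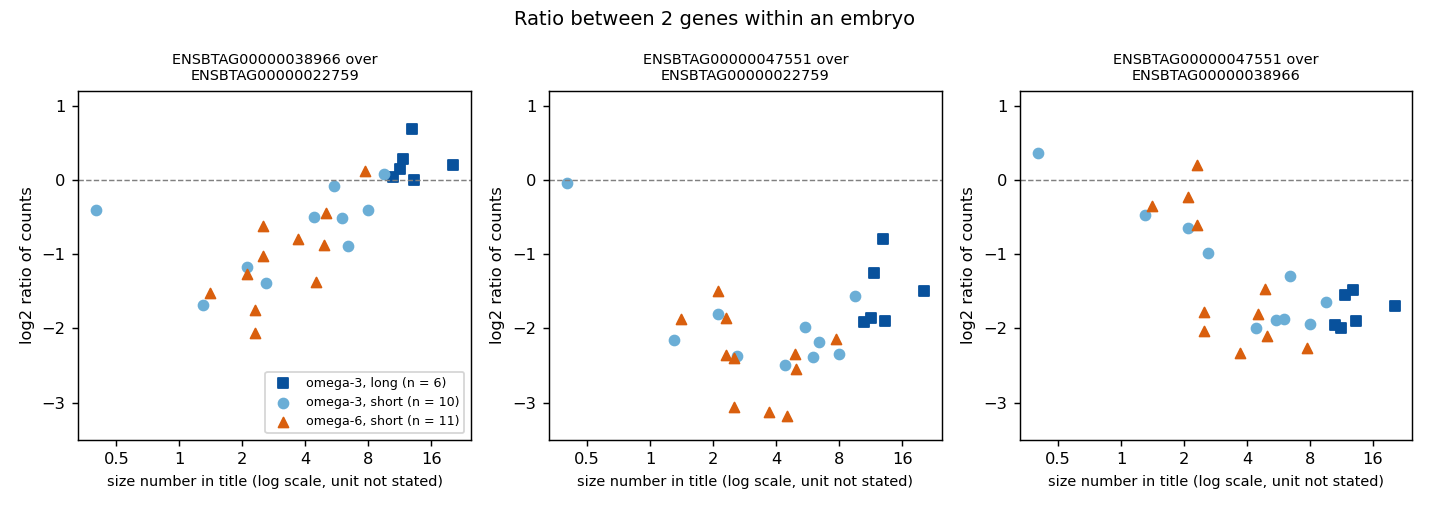
Each point is 1 embryo, with the log2 ratio of the counts of 2 genes on the vertical axis and the size number on a log axis, and the dashed line marks equal counts. The ratio of ENSBTAG00000038966 to ENSBTAG00000022759 crosses the line near the long class (class means from -1.41 to 0.23). That of ENSBTAG00000047551 to ENSBTAG00000022759 has its lowest class mean, -2.71, from 2.5 to below 5, where most embryos are omega-6.

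Spread within groups differed between the genes. In the long embryos the coefficient of variation was 5.91% for ENSBTAG00000022759, 12.5% for ENSBTAG00000038966 and 27.7% for ENSBTAG00000047551 (n = 6). The SD of log2 CPM there was 0.085, 0.17 and 0.37, against a median of 0.12 over the 100 most counted genes and 0.21 over all 11919 genes tested. ENSBTAG00000047551 was in place 3 from the widest of those 100 in the long embryos and ENSBTAG00000022759 was in place 84. Around the size line, without the smallest embryo, residual SDs were 0.31, 0.54 and 0.51, against a median of 0.22 over the 100 genes.

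Embryos of equal size showed how far the genes can differ at 1 size. The omega-6 embryos 21 and 30, both at 2.5, held 31793 and 16359 CPM of ENSBTAG00000022759, 20767 and 8045 CPM of ENSBTAG00000038966, and 6038 and 1965 CPM of ENSBTAG00000047551. These are ratios of 1.94, 2.58 and 3.07. Embryo 21 was thus higher in all 3 genes. The omega-6 embryos 18 and 19, both at 2.3, differed 1.40-fold, 1.74-fold and 1.01-fold. Across diets, omega-3 embryo 05 and omega-6 embryo 20, both at 2.1, held 17363 and 12793 CPM of ENSBTAG00000022759, 7725 and 5326 CPM of ENSBTAG00000038966, and 4944 and 4528 CPM of ENSBTAG00000047551. This pair across diets differed by 1.36-fold, 1.45-fold and 1.09-fold. Omega-3 embryo 08 (size number 4.4) and omega-6 embryo 24 (4.5) differed by 1.48-fold, 2.70-fold and 2.37-fold, with the omega-3 embryo higher in each gene. Omega-6 embryo 21 was higher than omega-3 embryo 12 (2.6) in each gene, by 1.41-fold, 2.41-fold and 1.38-fold, while embryo 12 was higher than omega-6 embryo 30 by 1.38-fold, 1.07-fold and 2.22-fold. Omega-3 embryo 13 (1.3) was higher than omega-6 embryo 25 (1.4) by 1.24-fold, 1.11-fold and 1.02-fold. The omega-6 embryos 28 (4.9) and 23 (5) differed by 1.19-fold, 1.13-fold and 1.38-fold. Pairs of the same diet and pairs across diets thus overlapped in how far they differed.

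Whether diet shifts the genes at a given size was tested with edgeR's quasi-likelihood test over all 27 embryos, in a model of diet, log2 size and letter. None of the 3 genes was called, and over the 11919 genes tested the share called was 0% (0 genes by edgeR and 0 by DESeq2, while 1415 had an edgeR p below 0.05 before adjustment). The log2 difference, omega-3 minus omega-6, was -0.27 ± 0.22 (SE) for ENSBTAG00000022759 (edgeR adjusted p = 0.578), with a 95% interval of 0.610 to 1.13 as a fold. For ENSBTAG00000038966 it was -0.14 ± 0.23 (adjusted p = 0.775, fold interval 0.659 to 1.25), and for ENSBTAG00000047551 it was 0.22 ± 0.19 (adjusted p = 0.597, fold interval 0.889 to 1.54).

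The estimate for ENSBTAG00000022759 depended on the smallest embryo and on the form of the size curve. Without embryo 14 it was -0.007 ± 0.14 (SE, edgeR adjusted p = 0.986), and with the square of log2 size in the model it was 0.09 ± 0.14 (adjusted p = 0.791). The estimate for ENSBTAG00000038966 was -0.03 without embryo 14, 0.08 with the square term and 0.10 without omega-6 embryo 21. That of ENSBTAG00000047551 remained positive, between 0.11 and 0.36, when each embryo was left out in turn. None of these fits called any of the 3 genes.

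**Figure D4:**
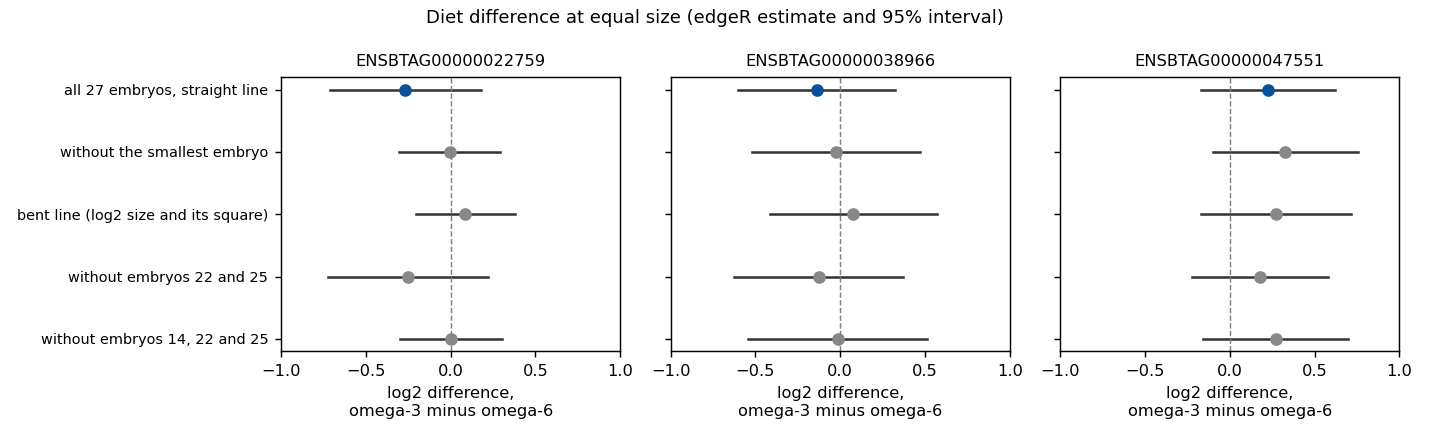
Points give the edgeR log2 difference between diets at equal size (omega-3 minus omega-6) and lines its 95% interval, for each gene under 5 fits. Every interval spans 0, and the ENSBTAG00000022759 estimate goes from -0.27 with all embryos to -0.007 without the smallest.

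The short embryos of the 2 diets were compared by their labelled groups, in a model of group and letter fitted to all 27 embryos. The log2 difference, omega-3 minus omega-6, was 0.10 ± 0.31 (SE) for ENSBTAG00000022759, 0.34 ± 0.44 for ENSBTAG00000038966 and 0.40 ± 0.27 for ENSBTAG00000047551 (edgeR adjusted p = 0.892, 0.708 and 0.547). None was called, against 0% of the 11919 genes (0 by edgeR, with 1059 at an unadjusted p below 0.05, and 0 by DESeq2). Without the smallest embryo the estimates were 0.23 ± 0.19, 0.47 ± 0.38 and 0.50 ± 0.23 (edgeR adjusted p = 0.499, 0.505 and 0.39). In that fit the interval of ENSBTAG00000047551, 1.02 to 1.97 as a fold, did not include equality (edgeR p = 0.0399 before adjustment), but the gene was not called. This model has no term for size, so it does not separate diet from size. With log2 size in the model and without the smallest embryo, the difference for this gene was 0.33 ± 0.21 (SE). Its interval, 0.935 to 1.69 as a fold, included equality.

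Slopes on size were set side by side for the diets. Within the 16 omega-3 embryos the slopes per doubling were 0.62 ± 0.12 (SE) for ENSBTAG00000022759, 0.92 ± 0.068 for ENSBTAG00000038966 and 0.52 ± 0.057 for ENSBTAG00000047551. Within the 11 omega-6 embryos they were 0.53 ± 0.17, 1.15 ± 0.32 and 0.24 ± 0.28. Without the smallest embryo the omega-3 slopes were 0.23 ± 0.053, 0.79 ± 0.083 and 0.46 ± 0.077, so for ENSBTAG00000022759 the order of the diets turned on that embryo. These slopes cover unlike ranges, since omega-3 embryos reach a size number of 20.3 and omega-6 embryos 7.7. In the 10 short omega-3 embryos alone the slopes were 0.88 ± 0.15, 1.05 ± 0.084 and 0.53 ± 0.073. Without the smallest of these they were 0.39 ± 0.072, 0.94 ± 0.13 and 0.42 ± 0.11 (n = 9). The slope of ENSBTAG00000047551 within omega-6 was thus smaller than its own standard error. The difference in slope was tested in the 21 short embryos, whose sizes overlap between diets. Omega-3 minus omega-6 it was 0.31 ± 0.27 (SE) for ENSBTAG00000022759, 0.01 ± 0.30 for ENSBTAG00000038966 and 0.29 ± 0.22 for ENSBTAG00000047551 (edgeR adjusted p = 0.84, 0.989 and 0.84). None was called, and the share called over 11534 genes was 0% (0 by edgeR, with 505 at an unadjusted p below 0.05, and 1 by DESeq2). The first difference was -0.09 ± 0.19 without the smallest embryo.

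Between the 15 embryos lettered m and the 12 lettered f, read here as male and female, the levels of the 3 genes overlapped widely. ENSBTAG00000022759 ran from 1284 to 32522 CPM in m (median 24560) and from 10361 to 29148 in f (median 25062). ENSBTAG00000038966 ran from 973 to 39353 CPM in m (median 19568) and from 3601 to 31918 in f (median 14460). ENSBTAG00000047551 ran from 1249 to 14094 CPM in m (median 5090) and from 1965 to 10919 in f (median 5072). At equal diet and size the log2 differences, m minus f, were -0.009 ± 0.20 (SE), 0.08 ± 0.21 and -0.03 ± 0.18 (edgeR adjusted p = 0.999 for each), when 0.411% of the 11919 genes were called. Without embryo 07, whose letter is in doubt, they were -0.03, 0.05 and -0.06.

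How far the genes move together was examined through each embryo's deviation from the straight line on log2 size, diet and letter. For ENSBTAG00000022759 a straight line on log2 size left a residual SD of 0.57, against 0.28 for a bent curve. Its deviations from the line thus still carry part of the size trend. Every long embryo lay below the line, and embryo 14 stood at 0.326 of it. A correlation around the straight line therefore cannot separate moving together from size for pairs with this gene. Deviations of ENSBTAG00000022759 and ENSBTAG00000038966 were correlated over the 27 embryos (Pearson r = 0.596, permutation p = 0.00202, adjusted over the 3 pairs 0.00606; Spearman rho = 0.567, permutation p = 0.0026, adjusted 0.0078). Without embryos 14 and 21, the farthest in the first gene, r was 0.509. Around the straight line within omega-3, r was 0.648 (n = 16, adjusted permutation p = 0.0192). No bent curve was fitted within either diet. Within omega-6 r was 0.849 (n = 11, adjusted permutation p = 0.0109), but rho was 0.582 (adjusted permutation p = 0.198) and r without embryos 21 and 28 was 0.621. Around a bent curve r was 0.60 (adjusted permutation p = 0.01), but rho was 0.170 (adjusted permutation p = 0.394) and r was 0.172 without embryos 21 and 24. Around that curve the relation thus rests on those 2 embryos.

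Deviations of the other pairs from the straight line were correlated less clearly. For ENSBTAG00000038966 and ENSBTAG00000047551 r was 0.439 (permutation p = 0.0228, adjusted 0.0342) and rho 0.324 (permutation p = 0.102, adjusted 0.153), with r = 0.370 without embryos 18 and 21. The call ended without embryo 21 (r = 0.210, adjusted permutation p = 0.456). Split by diet, r was 0.543 over the 16 embryos of omega-3 (adjusted permutation p = 0.0452) and 0.510 over the 11 of omega-6 (adjusted permutation p = 0.109). For ENSBTAG00000022759 and ENSBTAG00000047551 r was 0.308 (permutation p = 0.117, adjusted 0.117) and rho 0.187 (permutation p = 0.346, adjusted 0.346). It was 0.0738 without embryos 14 and 21. Split by diet it was 0.284 in omega-3 embryos and 0.567 in omega-6 embryos (adjusted permutation p = 0.289 and 0.102).

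Embryo 21 stood above the line in all 3 genes, 2.08-fold, 2.96-fold and 2.0-fold, the highest deviation of the 27 in each. Embryo 24 (omega-6, size number 4.5) stood below in all 3, at 0.823, 0.567 and 0.49 of the line. Omega-3 embryos 14, 01, 07 and 10 also stood below in all 3. Embryo 24 was the lowest of the 27 in ENSBTAG00000047551 only. Embryos 22 and 25 lay within the spread of the others. Embryo 22 was at 0.977, 1.07 and 0.595 of the line and embryo 25 at 0.869, 0.851 and 1.14.

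**Figure D5:**
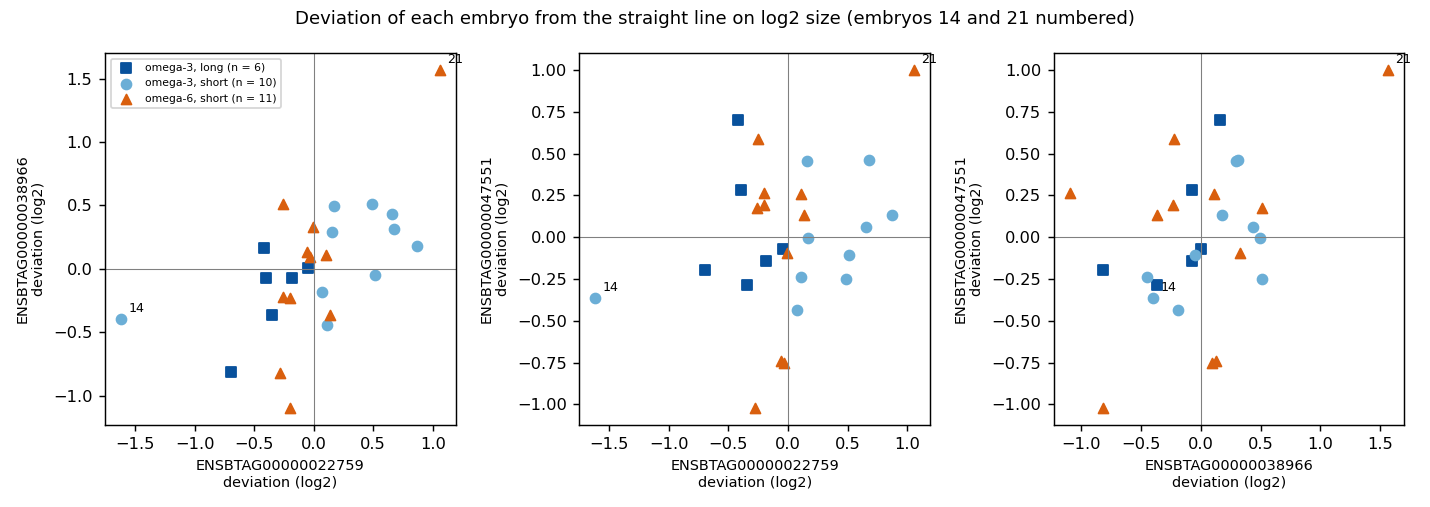
Each point is 1 embryo, and both axes give log2 deviations of a gene from the line on log2 size, diet and letter. Embryo 21 is at the upper right of all panels, and the pair ENSBTAG00000022759 and ENSBTAG00000038966 has r = 0.596.

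The genes closest in pattern to each of the 3 were found by Pearson r of log2 CPM over the 27 embryos, given here as a description since all share the size trend and the libraries. ENSBTAG00000033096 was closest to ENSBTAG00000022759 (r = 0.955) and was also the closest in its deviations from the size line (r = 0.872). It held 22 CPM in the smallest embryo, a median of 2901 CPM over all embryos and 3429 ± 1153 CPM in the long ones (SD, n = 6). The next was ENSBTAG00000022813 (r = 0.932), with 19 CPM in the smallest embryo and 182 ± 37.8 CPM in the long ones. Both thus share the low value of the smallest embryo.

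For ENSBTAG00000038966 the closest were ENSBTAG00000013856 (r = 0.960, and r = 0.818 in the deviations, again the first) and ENSBTAG00000021458 (r = 0.960). ENSBTAG00000013856 averaged 55.2 CPM with an SD of 14 over the 6 long embryos. Its mean was 27 CPM (SD 20.7) over the 10 short omega-3 embryos and 16.7 CPM (SD 17.3) over the 11 omega-6 embryos. For ENSBTAG00000047551 they were ENSBTAG00000030749 (r = 0.917, and 0.764 in the deviations, also first) and ENSBTAG00000015374 (r = 0.913), at 7.03 ± 3.17 and 4.14 ± 2.03 CPM in long embryos. The closest genes to the last 2 members were thus counted at levels far below the members themselves.

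The 3 genes were not each other's closest. Among the 11918 other genes tested, ENSBTAG00000038966 was in place 13 for likeness to ENSBTAG00000022759 (r = 0.858) and in place 28 for likeness to ENSBTAG00000047551 (r = 0.845). ENSBTAG00000047551 was in place 125 for likeness to ENSBTAG00000022759 (r = 0.703). Taken the other way round, the places were lower. For likeness to ENSBTAG00000038966, ENSBTAG00000022759 was in place 66 and ENSBTAG00000047551 in place 87. For likeness to ENSBTAG00000047551, ENSBTAG00000022759 was in place 406. The median r over all genes was -0.05, -0.03 and 0.05 for the 3 members in turn.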

How the data were processed

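RNA-seq read counts of 27 single cattle embryos were analysed. A stranded kit for polyadenylated RNA and single reads of 100 bp were used, per the labels' protocols. The deposited files hold whole-number counts per Ensembl gene, not normalised, and were made with STAR and featureCounts per the submitters' processing notes, which give no version. Not given in the sources used here are the genome build, the annotation, the strand setting and the treatment of reads shared by near-identical copies, so values would be uncertain if a member belonged to a multicopy family. All 351 pairs of libraries differed by a chi-square of at least 13.6 per degree of freedom, so no library was a copy.

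CPM are counts over the file total. Tests used edgeR 4.0.16 in R 4.3.3 (filterByExpr on the 3 groups with minimum count 10, minimum total 15 and minimum proportion 0.7, TMM scaling, two-sided quasi-likelihood F-test, Benjamini-Hochberg over all tested genes, called below 0.05), with standard errors from the log2 fold change and F. DESeq2 1.42.0, other scaling, no filter, other size curves and leaving out embryos were alternatives. The tests were checked on simulated counts. Slopes are least squares of log2 CPM on log2 size. Correlations used 100000 two-sided permutations of residuals. Log2 CPM for likeness and principal components used a prior count of 2. The SDs set beside other genes used log2 of CPM plus 0.1. Embryo numbers do not repeat between groups, so none were paired. The named genes are the 3 members, the 2 genes most like each in log2 CPM and the 1 most like each in its deviations. ENSBTAG00000045750 and embryos 21 and 24 were singled out after their values were seen. The members, gene rules and settings were chosen with earlier results of these data known.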

Additional observations from a re-analysis of the deposited data

Results flagged for a closer look

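Among the 6 long omega-3 embryos, embryo 04 (size number 12.9) held 39353 CPM of ENSBTAG00000038966, set apart from the next highest by 0.716 of the range of the group, which is past the 95% limit of Dixon's test for a group of 6. The same embryo held 14094 CPM of ENSBTAG00000047551, the highest of all 27, at a ratio of 0.473 that did not pass that limit, and 24560 CPM of ENSBTAG00000022759, the lowest of the long embryos. In this embryo 2 of the genes were thus at the top of their group and the other at the bottom. Chance flags about 1 in 20 groups, and 8 combinations of group and measure were examined. None was in the omega-6 group, whose 11 embryos exceed the group sizes covered. The flag is given as a description, since CPM values also chose the genes.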

How the results depend on the processing

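No alternative called any of the 3 genes for diet, for the slope difference or for the letter, and the estimates that changed sign were all uncalled. Diet at equal size gave 0.0869 (ENSBTAG00000022759) and 0.0768 (ENSBTAG00000038966) with the square of log2 size, and 0.00212 for ENSBTAG00000022759 without embryos 14, 22 and 25, a set added after seeing the data. Leaving out each embryo in turn gave -0.35 to -0.007, -0.23 to 0.10 and 0.11 to 0.36 for the 3 genes in the order of the report. The slope difference was -0.0908 and -0.105 for the first 2 genes without the smallest embryo, -0.0485 and -0.0942 without embryos 14, 22 and 25, and -0.13 for ENSBTAG00000038966 over all 27 embryos. Leaving out each short embryo gave -0.0908 to 0.46, -0.22 to 0.18 and 0.20 to 0.52. For diet among short embryos the ranges were 0.02 to 0.23, 0.15 to 0.62 and 0.22 to 0.50. For m minus f they were -0.13 to 0.11, -0.15 to 0.15 and -0.16 to 0.0490. The m minus f difference was 0.11 for ENSBTAG00000022759 and 0.0071 for ENSBTAG00000047551 without the smallest embryo, 0.0363 for the latter without embryos 22 and 25, and 0.0706 and 0.0707 for these 2 genes without embryos 14, 22 and 25.

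The number of genes called was 1 for the slope difference with no filter and with DESeq2, and 1 for diet among short embryos with no filter and without embryo 07. Leaving out embryos gave 0 to 1 genes in both. Between m and f 49 genes were called, 86 with DESeq2, 100 without embryos 22 and 25, 78 without embryo 07, 89 without embryos 14, 22 and 25, and 41 to 84 without each embryo. The cause of these changes was not tested.

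The slope of ENSBTAG00000022759 was 0.32 without the smallest embryo, 0.28 without embryos 14, 22 and 25 and 0.80 in the 21 short embryos. That of ENSBTAG00000038966 was 1.08 in short embryos and 1.15 in omega-6, and that of ENSBTAG00000047551 0.24 in omega-6. The correlation of deviations of ENSBTAG00000022759 and ENSBTAG00000047551 was 0.477 around the bent curve (adjusted permutation p = 0.0195), and 0.10 there without embryos 21 and 24. That of ENSBTAG00000038966 and ENSBTAG00000047551 lost its call without the smallest embryo (0.413), within omega-6 (0.510) and without embryo 21 (0.210). Counting error was at most 1.24% of a value to either side, and only 1 embryo had a size number below 1.3.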
